A study of Mus musculus with 6 samples.

Results

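The cytotoxic genes and T-box factors examined in these thymic lymphomas were Tbx21, Eomes, Gzma, Gzmb, Prf1, Nkg7, Ccl5, Klrd1 and Ifng. They were taken by exact gene symbol from the array's annotation, which gave 11 probe sets for the 9 genes, out of 18193 genes with a probe set of 1 symbol and 45101 probe sets on the array. Eomes and Prf1 were each read by a pair of probe sets and every other gene by a single one. RNA of 6 primary thymic tumours from separate mice was measured, 1 array per tumour. The cells were freed by mechanical disruption and not sorted, and tumours are numbered in the order of deposit, so numbers pair no tumours. All 6 mice were IkL/L, homozygous for a low-expression allele of Ikzf1 (the gene of Ikaros), and all carried CD4-Cre, a recombinase driven by Cd4 regulatory sequences and so active in developing thymocytes. In 3 of them, aged 18 to 20 weeks, Notch1 was wild type (Notch1+/+). In the other 3, aged 8 to 10 weeks, both Notch1 alleles were floxed (Notch1f/f), and the labels describe a deletion of the Notch promoter and exon 1 in these tumours. Age and genotype cannot be told apart here, and strain background, sex and batch are not given in the sources used here. Pairs of arrays correlated at 0.918 to 0.962 over the log2 values, and the number of arrays limits the precision.

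T-bet, encoded by Tbx21, and Eomesodermin, encoded by Eomes, are related T-box transcription factors that direct type 1 and cytotoxic programmes in T cells and natural killer (NK) cells. Killer cells store granzymes, which are serine proteases such as those of Gzma and Gzmb, in granules together with perforin, the pore-forming protein of Prf1. Nkg7 encodes a granule membrane protein, Klrd1 the CD94 chain of lectin-like NK receptors, Ccl5 a chemokine of activated T cells, and Ifng the cytokine interferon gamma. Developing thymocytes are not killer cells, and in mature T cells most of these genes are switched on only after activation.

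Upstream promoter sequence of Tbx21, Gzma and Nkg7 is shown because Tbx21 and Gzma had the smallest limma p-values among the 5 genes that passed the filter on dim probe sets, and Nkg7 was the 1 of 7 genes with a promoter in the table that held a T-box core in this window. The sequences are the 250 bases before the annotated start, 5′ to 3′ on the strand of the gene, from RefSeq on GRCm38.p6, at chr11:97115332-97115581 (minus strand), chr13:113100982-113101231 (minus strand) and chr7:43436888-43437137 (plus strand). Capitals mark matches, on either strand, to GGGAA, the core that Ikaros recognises, and to GGTGTG, the core of the T-box half-site.
Tbx21: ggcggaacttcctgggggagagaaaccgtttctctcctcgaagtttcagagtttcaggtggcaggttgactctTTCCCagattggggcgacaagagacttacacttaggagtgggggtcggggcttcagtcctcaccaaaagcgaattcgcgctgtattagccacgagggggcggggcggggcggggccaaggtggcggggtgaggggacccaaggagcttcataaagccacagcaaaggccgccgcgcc
Gzma: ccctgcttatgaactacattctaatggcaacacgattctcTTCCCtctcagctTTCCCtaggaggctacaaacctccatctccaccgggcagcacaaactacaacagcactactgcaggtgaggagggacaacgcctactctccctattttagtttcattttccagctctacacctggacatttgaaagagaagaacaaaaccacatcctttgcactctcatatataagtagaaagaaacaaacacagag
Nkg7: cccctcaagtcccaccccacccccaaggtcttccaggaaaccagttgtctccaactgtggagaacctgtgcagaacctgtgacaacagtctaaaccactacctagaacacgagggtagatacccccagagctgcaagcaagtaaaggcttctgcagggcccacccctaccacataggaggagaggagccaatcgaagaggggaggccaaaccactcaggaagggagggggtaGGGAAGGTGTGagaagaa
The Ikaros core occurred in 4 of the 7 promoters of these genes that the table held (Tbx21, Gzma, Prf1 and Nkg7) and in 56.2% of all 32851 promoters over the same length. The T-box core occurred in 1 of the 7, beside an Ikaros core in Nkg7, with no shared base, and in 16.3% of all promoters. These letters describe the windows only, and binding was not measured.

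Signals are MAS5 intensities on a linear scale, scaled by the authors to 1 common level per array. Group differences are given on the scale of log2(intensity + 16), Notch1f/f minus Notch1+/+, with a standard error (SE) from limma. Because of the added 16, this scale understates changes of dim genes. Dim probe sets, with a mean under 4.56 on that scale (an intensity of 7.60), were left out of the test. The 6 probe sets that passed were those of Tbx21, Gzma, Nkg7 and Ccl5 and both of Prf1. The nearest below the filter was Klrd1, at a mean of 4.51, and the nearest above it were 1 Prf1 probe set and Ccl5, both at 4.76. Tbx21 passed only through the Notch1+/+ tumours, since its mean was 5.81 there and 4.28 in the Notch1f/f tumours. Ccl5 passed only through the Notch1f/f tumours, with a mean of 5.04 there and 4.48 in the Notch1+/+ tumours. The tests of these 2 genes are therefore given as descriptions.

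No probe set of the 9 genes passed an adjusted p of 0.05 in limma, where 5 of all 27022 tested probe sets did (0.0185%). Before adjustment, Tbx21 and Gzma were the 2 of 6 tested probe sets with p below 0.05, beside 13.5% of all tested. The 3 tumours of one group lay entirely apart from the 3 of the other in 4 of the 11 probe sets. Of these, Tbx21 and 1 Prf1 probe set were lower in the Notch1f/f tumours, and Gzma and Klrd1 were higher. Over all 45037 non-control probe sets, 15.1% were apart, 8.52% with Notch1f/f lower and 6.61% with Notch1f/f higher. Among tested probe sets it was 3 of 6, beside 18.6% of all tested. Tbx21, which passed the filter only through the Notch1+/+ tumours, is in this count and in the 2 of 6 above. The members were also chosen with earlier results of these data known. Both counts are therefore descriptions, and no excess over the share of all tested is read from them. The median difference of the 6 was -0.12, beside -0.04 over all tested probe sets. Of all 11 probe sets, 7 had a difference below 0 and 4 above it.

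**Figure D1:**
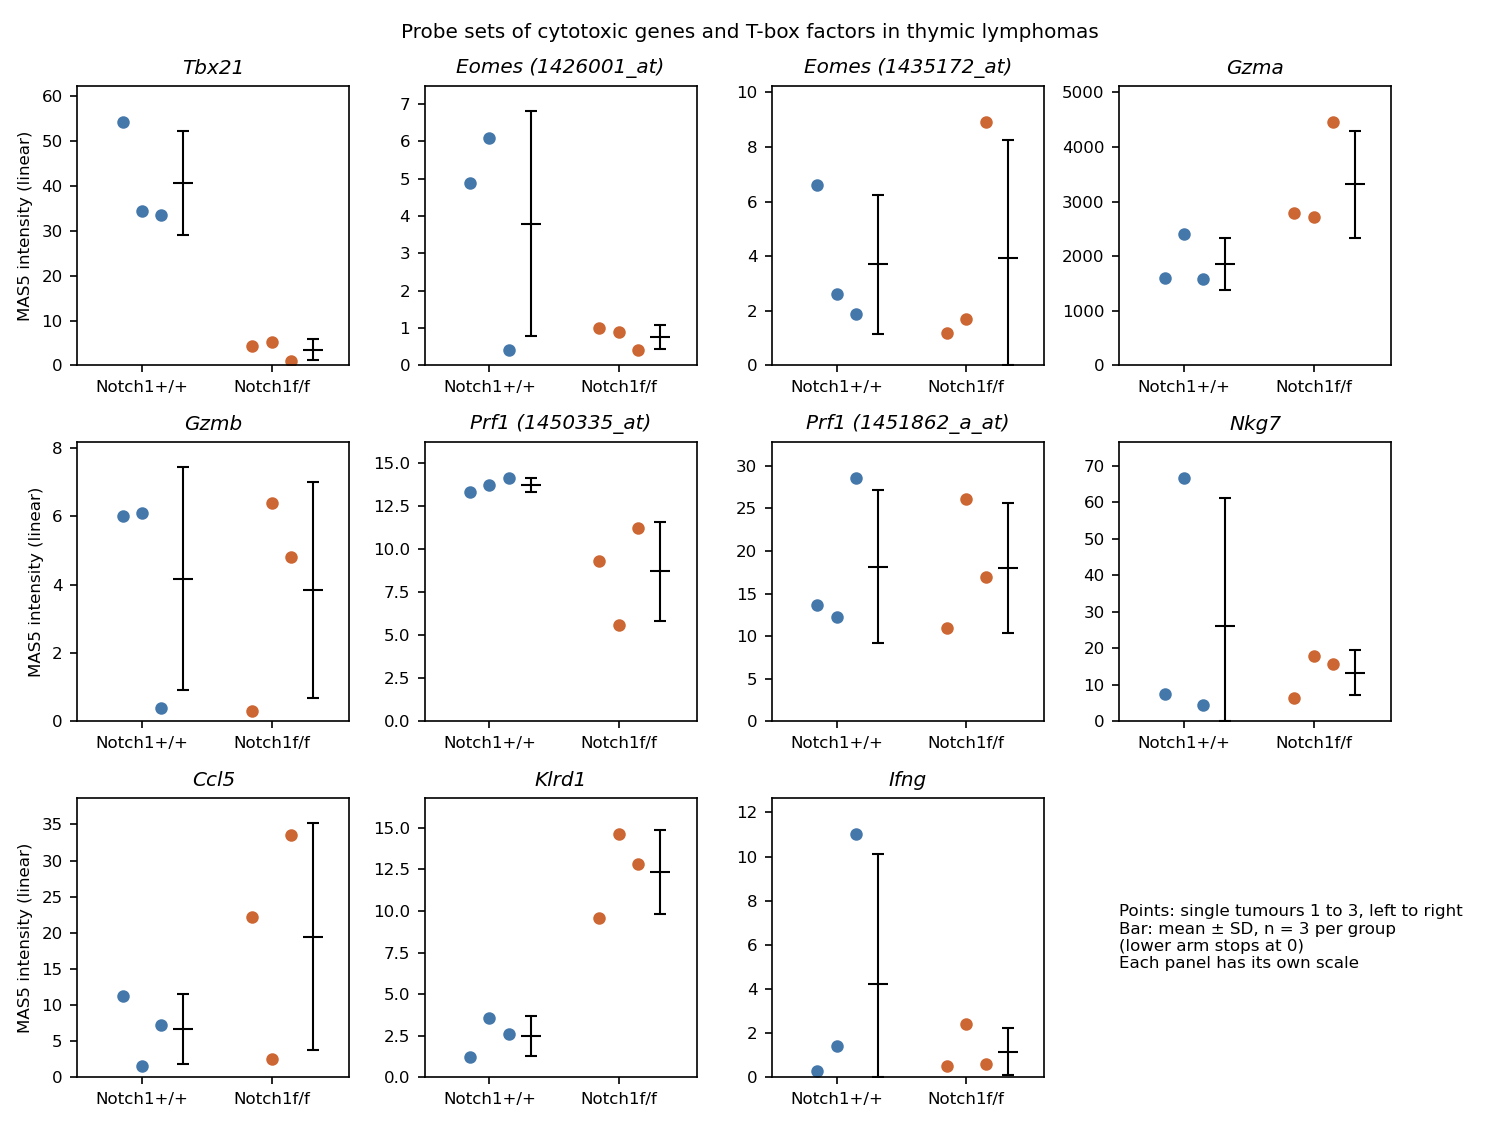
MAS5 intensity (linear, own scale in each panel) of the 11 probe sets in 3 Notch1+/+ (blue) and 3 Notch1f/f (orange) tumours, with mean and SD (n = 3, lower arm stopped at 0). Tbx21 reached 33.6 to 54.2 in the Notch1+/+ tumours and 1.0 to 5.3 in the Notch1f/f tumours, while Gzma had at least 1584 in every tumour.

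Of the T-box factors, Tbx21 had intensities of 54.2, 34.4 and 33.6 in Notch1+/+ tumours 1 to 3. In Notch1f/f tumours 1 to 3 it had 4.3, 5.3 and 1.0. No Notch1f/f tumour came near a Notch1+/+ tumour, and all 3 Notch1f/f values lay under the filter level. The log2 difference was -1.53 ± 0.22 (SE), with a limma adjusted p of 0.0951 and an exact two-sided permutation p of 0.1, the smallest that 3 against 3 tumours can give. The difference depended on the pseudocount in size, at -3.33 with 1 and -0.63 with 64 in place of 16. Without the filter the adjusted p was 0.235. With arrays weighted by quality it was 0.0469, and it ranged from 0.0657 to 0.355 as each tumour was left out in turn, the highest without Notch1f/f tumour 1. In RNA of whole tumours, fewer expressing cells and less RNA per cell cannot be told apart.

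Eomes was dim in all 6 tumours on both probe sets. The first probe set gave 4.9, 6.1 and 0.4 in the Notch1+/+ tumours and 1.0, 0.9 and 0.4 in the Notch1f/f tumours. The other probe set gave 6.6, 2.6 and 1.9 against 1.2, 1.7 and 8.9. The groups overlapped on both, and neither passed the filter. The exact permutation p was 0.4 and 1. Other genes of the T-box family, which pattern the embryo, were mostly dim as well, with 10 of 13 measured below the filter. Groups were apart and higher in the Notch1f/f tumours for 3 of the 13, beside 6.61% of all non-control probe sets. Of these, Tbx1 and Tbx4, named after their values were seen, were below the filter, at most 7.7 and 6.3 in any tumour. Only Tbx6 was above it. The 3 genes that passed the filter were Tbx6, Tbx19 and Mga, a Max partner that carries a T-box. Tbx6 had 7.40 ± 1.92 (SD, n = 3) in the Notch1+/+ and 17.5 ± 8.00 in the Notch1f/f tumours, with groups apart (log2 difference 0.49 ± 0.21, limma adjusted p = 0.355). Its Notch1+/+ mean lay under the filter level, so Tbx6 passed only through the Notch1f/f tumours and its test is a description. Mga had 354 ± 54.0 against 272 ± 85.5 and Tbx19 14.8 ± 6.12 against 15.6 ± 3.68, with groups that overlapped.

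Of the granule genes, Gzma was bright in every tumour. It had 1594, 2414 and 1584 in Notch1+/+ tumours 1 to 3 and 2796, 2711 and 4451 in Notch1f/f tumours 1 to 3. The groups did not overlap, but Notch1+/+ tumour 2 came close to Notch1f/f tumours 1 and 2, and Notch1f/f tumour 3 stood above the other 2 of its group. The log2 difference was 0.82 ± 0.24 (SE), 1.76-fold, with a limma adjusted p of 0.281 and an exact permutation p of 0.1. It was 0.59 without Notch1f/f tumour 3 (adjusted p = 0.525) and between 0.72 and 1.02 without any other tumour. The Gzma probe set is of a type that can read several transcripts of 1 gene.

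Gzmb, the other main granzyme of killer cells, had 6.0, 6.1 and 0.4 in the Notch1+/+ tumours and 0.3, 6.4 and 4.8 in the Notch1f/f tumours, below the filter and overlapping (exact permutation p = 0.9). The Prf1 probe set with the suffix _at had 13.3, 13.7 and 14.1 against 9.3, 5.6 and 11.2. These groups were apart, with a log2 difference of -0.27 ± 0.17 and a limma adjusted p of 0.501. The second Prf1 probe set, with the suffix _a_at, had 13.7, 12.3 and 28.5 against 11, 26.1 and 16.9. Here the groups overlapped and the log2 difference was 0.00 ± 0.26 (limma adjusted p = 1.00), so the 2 probe sets of Prf1 did not show 1 pattern. Nkg7 had 7.5, 66.5 and 4.6 against 6.3, 18.0 and 15.6. Notch1+/+ tumour 2 alone was high. The log2 difference of Nkg7 was -0.25 ± 0.47 (limma adjusted p = 0.842), and 0.39 without that tumour.

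**Figure D2:**
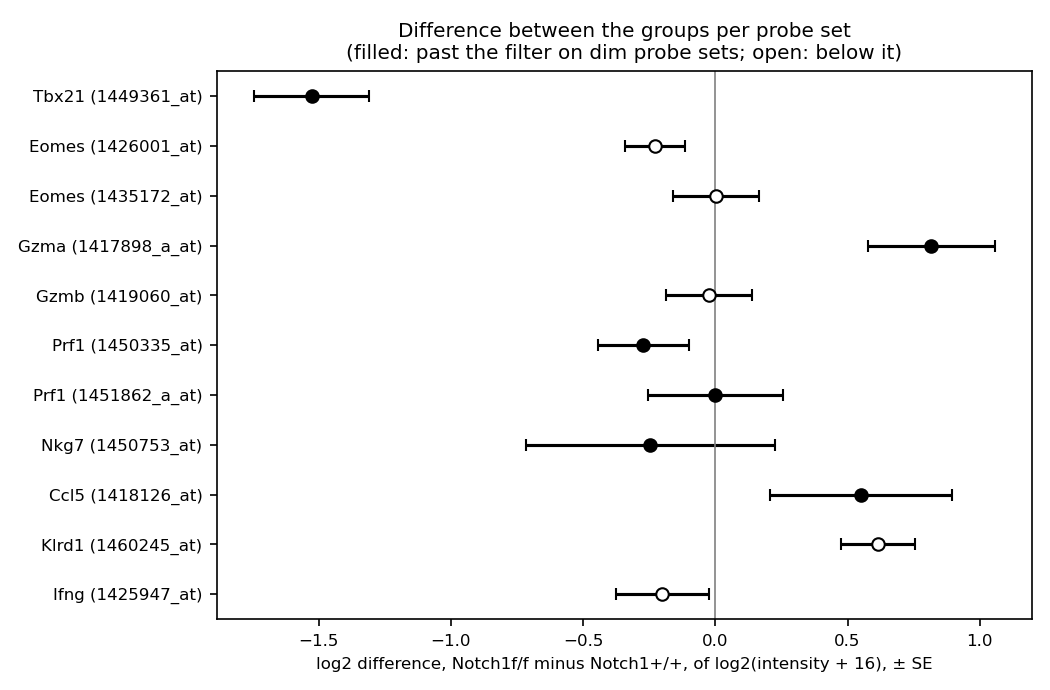
Log2 difference of log2(intensity + 16), Notch1f/f minus Notch1+/+, for each probe set, with SE as bars (filled, limma fit of the 27022 tested probe sets; open, below the filter, SE from the fit without a filter). Tbx21 at -1.53 lies farthest to the left, Gzma at 0.82 and Klrd1 at 0.62 farthest to the right, and Eomes, Gzmb and the second Prf1 probe set lie near 0 or within 0.23 of it.

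Of the receptor, chemokine and cytokine genes, Klrd1 had 1.2, 3.6 and 2.6 in the Notch1+/+ tumours and 9.6, 14.6 and 12.8 in the Notch1f/f tumours. All 3 Notch1f/f tumours lay above the Notch1+/+ tumours, at a low level in both groups. Klrd1 was below the filter. In the fit without a filter its log2 difference was 0.62 ± 0.14, with a limma adjusted p of 0.337 and an exact permutation p of 0.1. Ccl5 had 11.3, 1.6 and 7.3 against 22.2, 2.6 and 33.6, so that Notch1f/f tumours 1 and 3 were above all Notch1+/+ tumours and Notch1f/f tumour 2 was not (log2 difference 0.55 ± 0.34, limma adjusted p = 0.493). Ifng had 0.3, 1.4 and 11 against 0.5, 2.4 and 0.6. Only Notch1+/+ tumour 3 exceeded the filter level for Ifng, and the groups overlapped (exact permutation p = 0.7).

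Further genes of the same pathways were read from lists, each gene by its brightest probe set. None of their genes passed an adjusted p of 0.05. The counts of genes with groups apart stand beside 6.61% higher and 8.52% lower over all non-control probe sets. Of 20 measured genes that act in granules or killing, 14 passed the filter, with a median log2 difference of 0.17, and 1 was higher and 1 lower with groups apart. Lamp1, a lysosomal membrane protein shown on the surface when granules are released, had 764 ± 45.8 (SD, n = 3) against 1242 ± 296 (limma adjusted p = 0.290). Ctsc, the protease that activates granzymes, had 521 ± 133 against 656 ± 118, and Ctsw, a cathepsin of killer lymphocytes, 32.9 ± 39.0 against 70.6 ± 23.4, both overlapping. Srgn, the proteoglycan that packs granzymes, is named after its values were seen and had 1544 ± 778 against 2353 ± 1039, overlapping as well. Gnptab, which makes the mannose 6-phosphate tag that routes enzymes to lysosomes, had 197 ± 16.8 against 149 ± 29.1 with groups apart (limma adjusted p = 0.477). The 5 granzyme genes Gzmc to Gzmg reached at most 5.9 in any tumour.

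Of 19 measured genes that regulate T-bet and Eomes or work with them, all passed the filter. Their median was 0.05, with 10 genes above 0 and 9 below it. With groups apart, 5 lay higher and 0 lower, and 4 of those 5 had an unadjusted p under 0.05 in limma. Over all tested probe sets 18.6% were apart in either direction and 13.5% had such a p. Foxo1, a factor of naive T cells that restrains T-bet, had 268 ± 63.6 in the Notch1+/+ and 470 ± 59.0 in the Notch1f/f tumours (log2 difference 0.79 ± 0.23, limma adjusted p = 0.274). Bcl6, a repressor that opposes T-bet, had 141 ± 44.3 against 302 ± 150, with Notch1f/f tumour 1 alone at 475. Ets1, a factor that cooperates with T-bet at Ifng, had 2843 ± 378 against 4036 ± 340 (limma adjusted p = 0.281). Prdm1, the gene of the effector repressor Blimp-1, was dim at 4.50 ± 2.41 against 12.0 ± 4.24. Its Notch1+/+ values of 2.2, 4.3 and 7 all lay under the filter level, so it passed the filter only through the Notch1f/f tumours. Prdm1 is among the 4 with an unadjusted p under 0.05, so that count is a description and no excess is read from it. Gata3, the type 2 counterpart of T-bet, was the fifth and is named after its values were seen, at 288 ± 29.7 against 395 ± 27.4 (limma adjusted p = 0.369).

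Of 17 measured genes of the type 1 effector and interferon gamma axis, 10 passed the filter, with a median of 0.36. Groups were apart for 2 higher and 1 lower. Jak1, a kinase of the interferon gamma receptor, had 659 ± 64.2 against 1061 ± 417. Ccl4, a chemokine of effector T cells, had 23.4 ± 3.90 against 11.3 ± 3.04 (log2 difference -0.53 ± 0.19, limma adjusted p = 0.310). Il10, an inhibitory cytokine, had 83.5 ± 82.2 against 256 ± 176, with groups that overlapped. Socs1, a feedback inhibitor of this pathway, had 53.0 ± 16.7 against 83.5 ± 18.2 and overlapped as well. Besides Jak1, the gene apart and higher was Irf1, named after its values were seen, at 364 ± 40.8 against 483 ± 77.7 (limma adjusted p = 0.429).

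**Figure D3:**
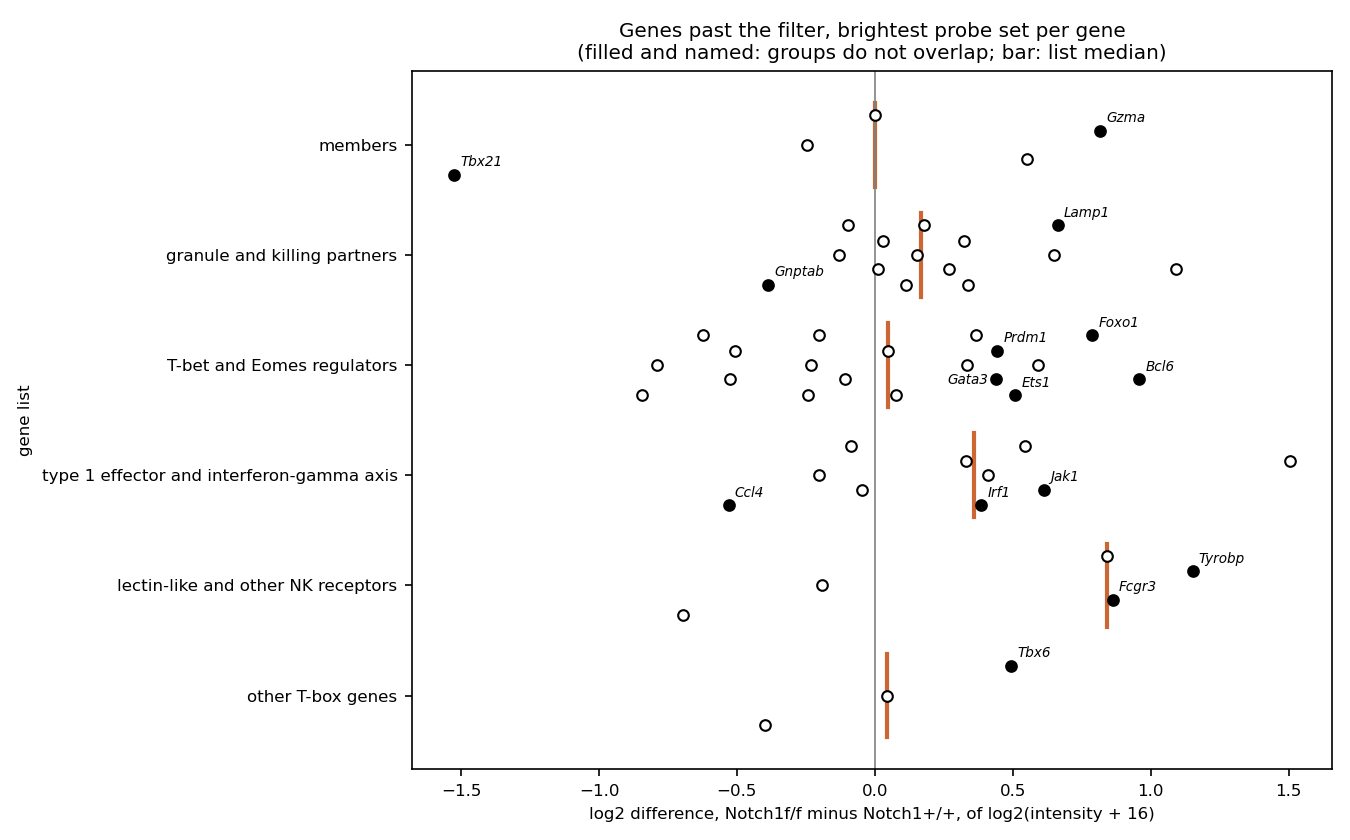
Log2 difference of log2(intensity + 16), Notch1f/f minus Notch1+/+, for genes past the filter (brightest probe set per gene) in the 9 genes ("members") and 5 related lists. Filled, named points have groups that do not overlap and bars are list medians. Tbx21 at -1.53 is the leftmost point, and the named regulators, from Gata3 at 0.44 to Bcl6 at 0.96, all lie to the right of 0. Of all 19 regulators, 10 lie above 0 and 9 below it.

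Of 15 measured lectin-like and other NK receptor genes, 5 passed the filter, with a median of 0.84, and 11 stayed at or under 20 in every tumour. Groups were apart for 3, all higher in the Notch1f/f tumours, namely Tyrobp, Fcgr3 and the dim Klrc1, the last named after its values were seen. Klrc1 was below the filter, at 0.6, 0.3 and 0.5 against 0.8, 4.0 and 8.2. The genes with the smallest p-values were adaptors and a receptor that myeloid cells also use. Tyrobp, which encodes the adaptor DAP12, had 32.5 ± 17.2 against 91.2 ± 41.6 (limma adjusted p = 0.295). Fcgr3, an Fc receptor, had 38.6 ± 23.3 against 78.1 ± 10.8, and Hcst, the adaptor DAP10, 49.5 ± 25.2 against 98.3 ± 28.7. Cd160, a receptor of NK cells and some T cells, had 149 ± 112 against 80.4 ± 52.4 and overlapped.

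The defining NK receptors Ncr1, Klrk1, Klre1 and Klra8 reached at most 4.7 in any tumour. The summed intensity of 7 measured NK markers was 31.0 to 66.3 in the Notch1+/+ and 76.3 to 151 in the Notch1f/f tumours. Without Tyrobp, the sum of the other 6 was 13.7 to 22.5 against 12.3 to 17.2, so that the groups overlapped. Tyrobp was the only 1 of the 7 past the filter. The sum of the other 6 is thus not told from background and cannot show whether NK cells differed between the groups. The tumours carried their labelled T cell identity, with no value under 163 for any of 12 measured T lineage markers and sums of 20383 to 23762 against 22882 to 29690. Over all non-control probe sets, 6.61% were apart and higher in the Notch1f/f tumours and 8.52% apart and lower. Macrophage markers were apart and higher for 6 of 10 genes in the Notch1f/f tumours, with sums of 270 to 946 against 1495 to 2882. The macrophage gene Adgre1 went the other way, at 34.1 ± 16.5 against 27.1 ± 9.87, and overlapped. Dendritic cell markers were apart and higher for 2 of 7 (95.3 to 353 against 359 to 3209) and B cell markers for 2 of 6 (81.8 to 89.5 against 132 to 319). The dendritic cell genes apart were H2-Aa and Cd74, at 1223 and 1830 of the 3209 in Notch1f/f tumour 3. Itgax and Ccl17 passed the filter and overlapped, with higher means in the Notch1f/f tumours. Flt3, Siglech and Xcr1 were below the filter and overlapped. Of these, Xcr1 went the other way, at 7, 8 and 2.9 against 1.2, 3.2 and 2.8. The macrophage, dendritic cell and B cell sums were all highest in Notch1f/f tumour 3, as was Gzma. The T lineage, NK and mature T cell sums were highest in that tumour as well. Of its NK sum of 151, Tyrobp made 139, and without Tyrobp the highest NK sum, 22.5, was in a Notch1+/+ tumour. Neutrophil markers were apart and lower for 2 of 7, with sums of 208 to 351 against 127 to 210. Mature T cell genes were apart and higher for 5 of 7, with sums of 510 to 898 against 1085 to 1582. Il7r and Cd44 overlapped, with lower means in the Notch1f/f tumours. Il7r had 394 ± 271 against 215 ± 55.9, and Cd44 207 ± 134 against 141 ± 45.0. Markers of natural killer T and innate-like T cells were apart and higher for 1 of 7. Their median log2 difference was -0.18, with sums of 937 to 1416 against 997 to 1397. Of the 4 CD4 and CD8 coreceptor genes, only Cd8a was apart, at 1601 ± 504 against 2567 ± 252. The part of these cells in the values of Tbx21, Gzma, Klrd1, Ccl5 and Tyrobp was not tested.

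**Figure D4:**
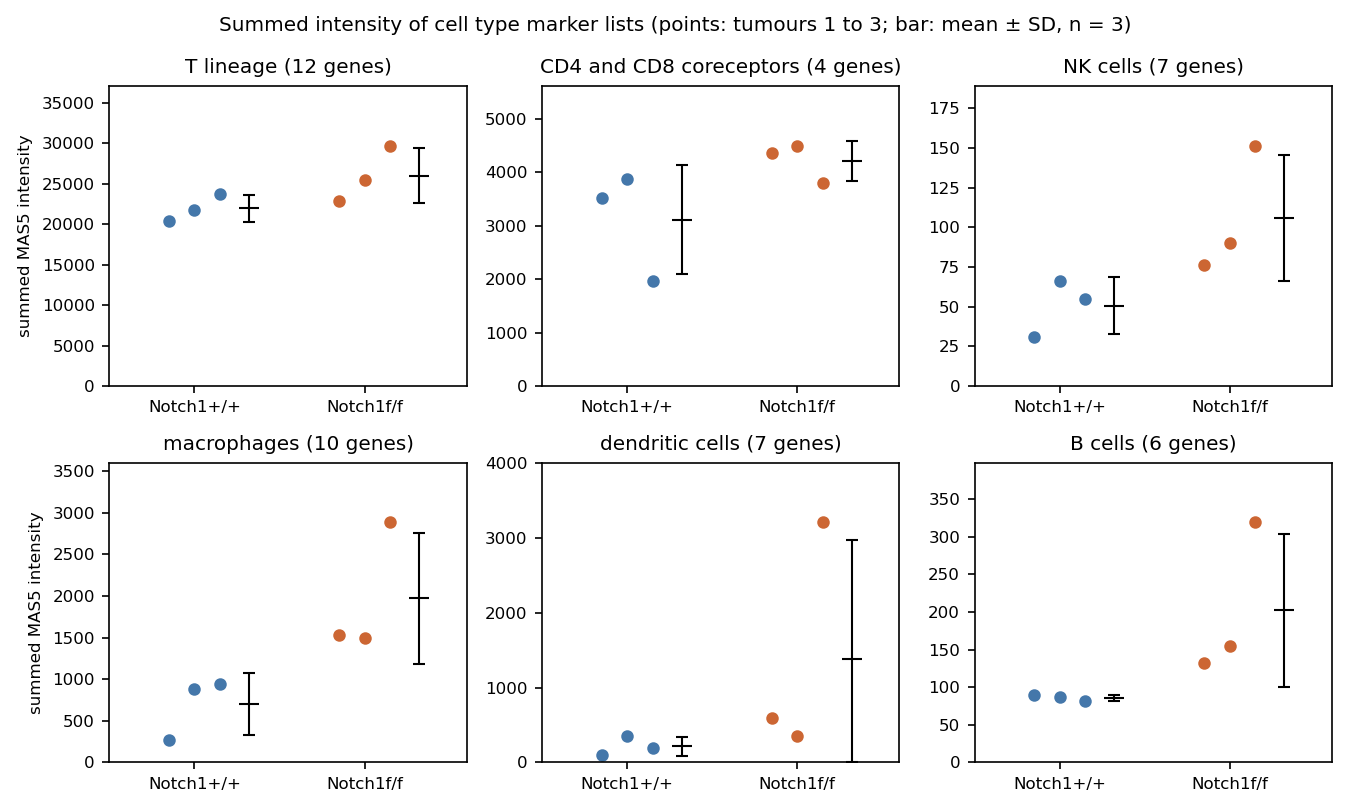
Summed MAS5 intensity (linear) of marker genes of 6 cell types or classes in each tumour, with mean and SD (n = 3 per group, lower arm stopped at 0). Macrophage sums of 270 to 946 in the Notch1+/+ tumours lie below the 1495 to 2882 of the Notch1f/f tumours, and the NK sums of 31.0 to 66.3 lie below 76.3 to 151. Without Tyrobp, which myeloid cells also use, the NK sums overlap, at 13.7 to 22.5 against 12.3 to 17.2 (not drawn). The NK genes left in these sums were all below the filter.

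The order of the tumours is given for Tbx21 and Gzma. For Tbx21, Notch1+/+ tumour 1 was highest, Notch1+/+ tumours 2 and 3 were nearly level, and the 3 Notch1f/f tumours, all under the filter level, have no order. For Gzma the order was Notch1f/f tumours 3, 1 and 2, then Notch1+/+ tumours 2, 1 and 3, where each of the pairs Notch1f/f 1 and 2 and Notch1+/+ 1 and 3 was nearly level. Likeness of pattern was measured as the root mean square difference of mean-centred log2 values over the 6 tumours, among 22429 tested probe sets with 1 gene name. Nearest to Tbx21 were Cadm4 (0.20), Vegfa (0.21), Taf15 (0.24) and Lrp8 (0.24), where the median probe set had 0.81. Vegfa had 50.9, 49.9 and 31.9 against 2.8, 6.4 and 6.3, and Cadm4 251, 202.5 and 145 against 45.8, 54.0 and 56.5. Nearest to Gzma were Hcst (0.12), Ndfip1 (0.14), R3hdm4 (0.15) and Atp6v0d2 (0.15), against a median of 0.60. Hcst had 37.5, 78.4 and 32.5 against 90.5, 74.4 and 130, with the same high Notch1+/+ tumour as Gzma.

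**Figure D5:**
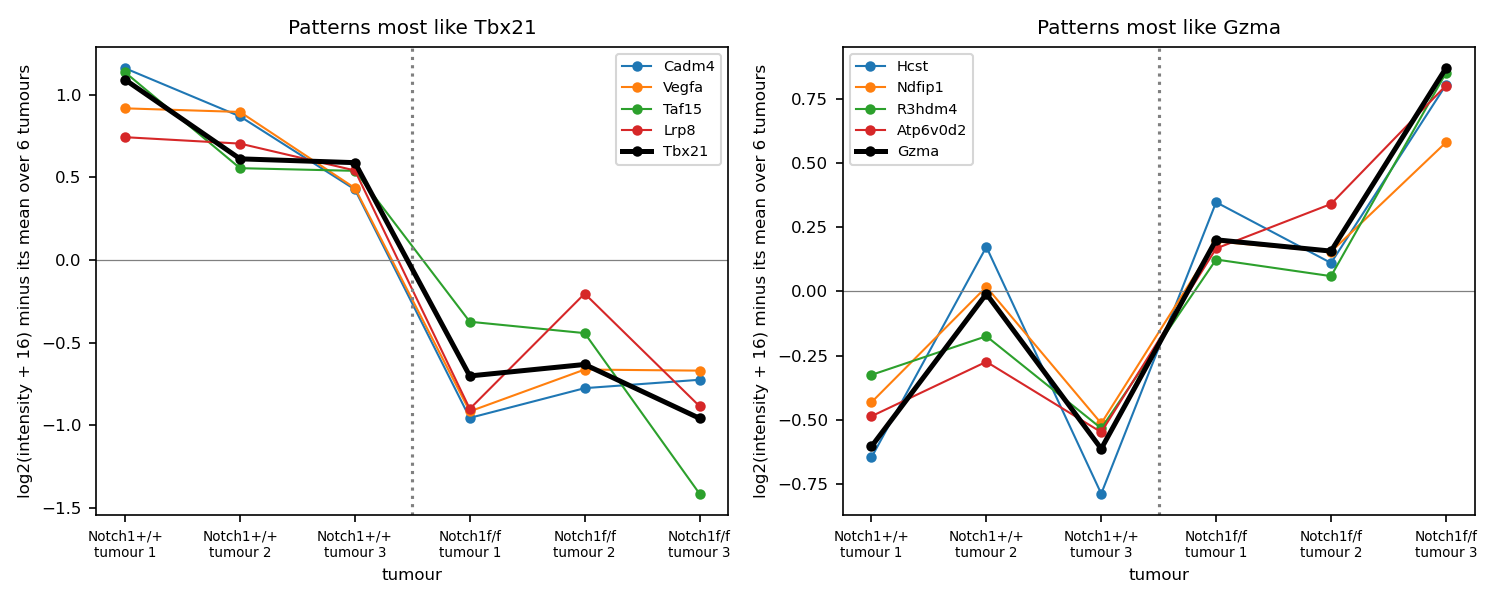
Log2(intensity + 16) minus its mean over the 6 tumours for Tbx21 (left, black) and Gzma (right, black) and the 4 genes nearest to each, by tumour. Lines only join the points of a gene. Tbx21 and its 4 neighbours lie lower in the Notch1f/f tumours, and Gzma and its neighbours are highest in Notch1f/f tumour 3.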

How the data were processed

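Affymetrix arrays were hybridised with labelled RNA of unsorted cells from 6 tumours. The deposited values are MAS5 signal intensities, per the submitters' processing notes, with no version given. Each array's mean after trimming 2% at each end was 100, and detection calls were not used here. Symbols came from the platform annotation, where 34945 probe sets had 1 symbol. Genes without one are not analysed here.

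Intensities plus 16 were put on the log2 scale, 64 control probe sets and those under the 40th percentile of the mean were left out, and 27022 were fitted with limma 3.58.1 in R 4.3.3 (lmFit, eBayes with trend, two-sided, Benjamini-Hochberg adjustment over all of them). No covariate was used. The fit was tested on simulated data. Up to 4 genes per list with the smallest p-values were named, besides the 9 genes, and the 4 genes nearest in pattern to Tbx21 and to Gzma. Members and lists were chosen with earlier results of these data known. Alternatives covered the pseudocount, filter, scaling, trend, array weights, threshold, probe set averaging and each tumour left out. Figures used matplotlib 3.10.9 in Python 3.11.15.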

Additional observations from a re-analysis of the deposited data

How the results depend on the processing

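The count of probe sets of the 9 genes past an adjusted p of 0.05 stayed at 0 in the alternative settings it was run in (not with a gene's probe sets averaged, which was run for Prf1 only), apart from array weights and a threshold of 0.10, where it was 1 (Tbx21 in both). With a filter at the 60th percentile only Gzma was tested, so the count of probe sets with groups apart was 1 and the median log2 difference 0.82. The sign of the median, -0.12 in the main fit, was not stable. It was 0.13 without Notch1+/+ tumour 2, 0.21 without Notch1+/+ tumour 3 (7 probe sets tested) and 0.05 without Notch1f/f tumour 1. It stayed below 0 without any other single tumour. Tbx21, Gzma, Ccl5 and the Prf1 probe set with the suffix _at kept their direction wherever they were tested. Nkg7 ranged from -0.61 to 0.39 with single tumours left out and had -0.71 with array weights. The Prf1 probe set with the suffix _a_at, with a difference of 0.00, had 0.0044 with a pseudocount of 1, 0.055 with quantile normalisation, 0.045 with median centring and -0.17 to 0.21 with single tumours left out. Median centring moved the share of all tested probe sets above 0 from 45.0% to 50.1%. No paired analysis was possible because the labels pair no tumours. With 3 arrays per group and no detection calls, values under the filter level cannot be told from background.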

Other observations

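Notch1+/+ tumour 2 held the highest value of several lymphocyte effector genes, besides Nkg7. These genes were singled out after their values were seen. Il12rb1, a chain of the interleukin 12 receptor, had 122 there and at most 45.4 in any other tumour. Tnfsf10, the death ligand TRAIL, had 133.5 against at most 59.7, Cd160 274 against at most 137, and Cst7, a cystatin of cytotoxic granules, 48.7 against at most 25.4. Il15ra had 104 against at most 64.4, and Runx3, a factor of CD8 and NK cells, 191 against at most 124. In that tumour Gzmb had 6.1, Ifng 1.4 and Eomes at most 6.1. Ccl5, Gzmk and Gzmm were lowest there of all 6 tumours, at 1.6, 4.2 and 7.1, all under the filter level.

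Of 53 genes past the filter, from the 9 genes and the lists on granules, regulators, the type 1 axis and NK receptors, 13 (24.5%) were highest in Notch1+/+ tumour 2, beside 16.3% of all tested probe sets. Notch1f/f tumour 3 held the highest value of 20 (37.7%, beside 18.8%), and Notch1+/+ tumour 1, which had the most Tbx21, of 3 (5.66%, beside 21.1%). Notch1+/+ tumour 2 also had the highest sum of stroma and endothelium markers, at 1544 against 302 to 440 in the other tumours, whose part in these values was not tested.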
